A study of Mus musculus with 15 samples.

Results

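Ketone bodies are small acids that the liver makes from fatty acids and that other organs burn. In mouse kidney, 4 genes of that pathway were followed: Bdh1, Bdh2, Oxct1 and Acat1. They were taken by symbol from a table of 17832 genes, and all 4 passed the filter on low values. Whole kidney RNA came from male C57BLKS/J mice aged 22 weeks, in 3 groups of 5 libraries. The control group was m/m, which the sample titles call wild type, and received the vehicle, 0.5% methylcellulose. A second group was db/db, homozygous for a mutation of the leptin receptor that makes mice obese and diabetic, and received the same vehicle. The remaining group was db/db and was given dapagliflozin at 1 mg/kg, a drug that blocks the glucose transporter SGLT2 of the proximal tubule. No m/m mice on the drug were analysed here. The study asked, by its title, how dapagliflozin acts on diabetic kidney disease. No label states that each library is a separate animal, so the p-values below measure only the spread between these libraries.

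To use a ketone body, a cell first oxidises 3-hydroxybutyrate to acetoacetate, which Bdh1 does in mitochondria and the separate enzyme Bdh2 in the cytosol. Oxct1 (the enzyme SCOT) then moves a CoA from succinyl-CoA to acetoacetate, which is the committed step of use outside the liver. Acat1, the mitochondrial acetoacetyl-CoA thiolase, splits the product into acetyl-CoA for the citric acid cycle, runs the reverse reaction at the start of synthesis, and also serves isoleucine breakdown. The kidney is known to take up and burn ketone bodies, above all in the proximal tubule.

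The promoters of Bdh1 and Oxct1 are shown because these were the largest falls among the 4 genes in db/db kidney. Each line gives the 250 bases upstream of a RefSeq start on GRCm38.p6, at chr15:4026178-4026427 (plus strand) for Oxct1, and at chr16:31422047-31422296 and chr16:31428503-31428752 (both plus strand) for the first and second start of Bdh1. Capitals mark the stretch closest to the DR1 element (the consensus of nuclear receptor pairs such as PPAR with RXR), on either strand. Of the 4 genes, 3 had a promoter entry, and Acat1 had none.
Oxct1: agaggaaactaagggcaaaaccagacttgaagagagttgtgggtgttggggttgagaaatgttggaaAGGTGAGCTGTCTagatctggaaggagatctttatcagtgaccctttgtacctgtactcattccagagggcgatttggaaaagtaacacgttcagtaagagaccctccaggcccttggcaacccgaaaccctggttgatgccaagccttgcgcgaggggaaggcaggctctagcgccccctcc
Bdh1 first start: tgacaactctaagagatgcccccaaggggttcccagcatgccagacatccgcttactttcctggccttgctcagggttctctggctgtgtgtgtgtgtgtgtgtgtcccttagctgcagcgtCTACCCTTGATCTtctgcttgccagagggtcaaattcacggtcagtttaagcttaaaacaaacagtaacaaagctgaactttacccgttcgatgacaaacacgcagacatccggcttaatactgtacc
Bdh1 second start: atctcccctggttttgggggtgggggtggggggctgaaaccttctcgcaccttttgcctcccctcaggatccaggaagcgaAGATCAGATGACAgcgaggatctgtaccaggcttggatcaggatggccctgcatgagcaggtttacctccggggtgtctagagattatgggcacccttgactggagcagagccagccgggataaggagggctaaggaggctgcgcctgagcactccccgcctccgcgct
The capitals differ from DR1 at 4 bases in Oxct1, at 4 in the first Bdh1 window and at 3 in the second. Of all 32851 windows of this length, 74.5% hold a stretch with at most 4 differences and 21.3% one with at most 3, so these matches are common. The letters of the full DR1 element were in 0.0335% of all windows and in none of these. Of the other motifs searched on both strands (the core site AGGTCA, its extended form TCAAGGTCA that contains it, the STAT element TTCNNNGAA, the CCAAT box, the Sp1 box GGGCGG, the TATA box as TATAAA and the element TGACGTCA of CREB), the window of Bdh2 held the CCAAT box, as do 33.8% of all windows, and no other motif was found in the member windows. The guanine and cytosine content was 52% for Oxct1 and 49.6% and 60.8% for the windows of Bdh1, against a median of 52.4% over all windows.

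The libraries fell into sets of very different depth, and this decides which can be compared. All m/m libraries, together with db/db vehicle 1, 2 and 3, had 14.8 to 16.4 M reads each, counted from the steps in the values, whereas db/db vehicle 4 and 5 and all 5 dapagliflozin libraries had 1.60 to 2.29 M. Genotype was therefore compared within the first set and drug within the second. In 342 genes, the low-read libraries were at least 8-fold higher than the high-read db/db libraries in mean FPKM + 1, and these genes, chosen after the data were seen, took 275306 to 291719 reads in each low-read library whatever its total. None of the 4 genes was among them. The RNA was of kidney: the 12 proximal tubule markers summed to at least 6801 FPKM (fragments per kilobase of transcript and per M reads) in each library, and the 4 adipocyte markers to at most 0.573. Of 3 adrenal cortex markers the data held 2, and their sum was 0.12 to 0.555 FPKM in the high-read and 9.22 to 12.3 in the low-read libraries. The source of these reads, and the part of other tissue in any result, were not tested.

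In db/db kidney all 4 genes were lower than in m/m kidney. Bdh1 fell to 31.0% of its m/m mean, Oxct1 to 43.9%, Acat1 to 46.2% and Bdh2 to 81.4%. Each was called lower at an adjusted p under 0.05 in a limma fit over 12869 genes, and in none did the groups overlap. Lack of overlap was not particular to them or to called genes. Among other genes of the pathway, Slc16a1, Suclg1 and Sucla2 did not overlap either and were not called. The share of all tested genes without overlap was not counted. Of all tested genes, 8.29% were called lower and 29.5% higher in the same comparison. In whole tissue, fewer cells that carry an RNA and less RNA in each cell cannot be told apart.

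**Figure D1:**
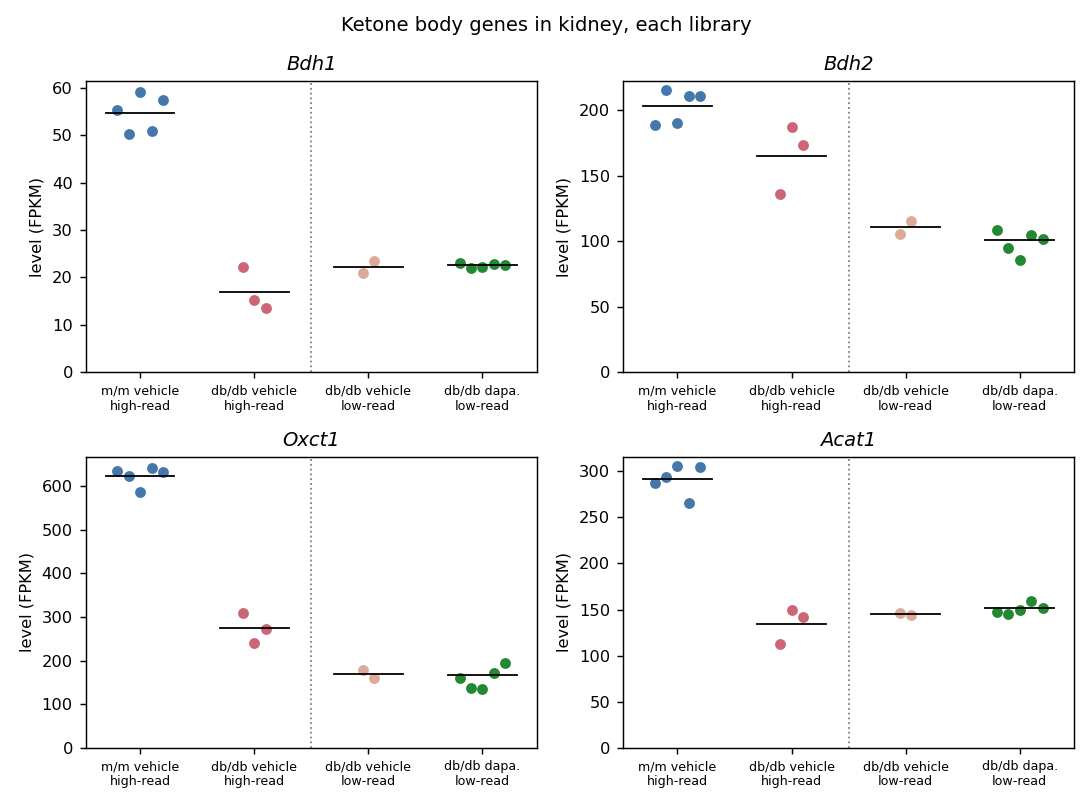
Level of each gene in FPKM (vertical axes, from 0) in every library (points), by group and library set, with the mean as a bar in which dapagliflozin 2 and 3 count as 1 sample. All m/m points lie above all db/db points in each panel, and vehicle and dapagliflozin points of the low-read set overlap.

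Bdh1, the mitochondrial dehydrogenase, had the lowest level of the 4 genes. It stood at 55.3, 50.3, 59.2, 51.0 and 57.6 FPKM in m/m libraries 1 to 5 and at 22.1, 15.2 and 13.6 FPKM in db/db vehicle 1 to 3. Every m/m library lay far above the highest db/db library, vehicle 1. The mean was 54.7 ± 3.96 FPKM (SD, n = 5) in m/m and 17.0 ± 4.53 FPKM (SD, n = 3) in db/db. On the log2(FPKM + 1) scale the change was -1.66 (95% interval -1.91 to -1.41, limma adjusted p = 3.86e-07). It ranked 73 among tested genes from the lowest log2 fold change. These values rest on 737 to 1283 reads per db/db library, a counting error of 2.79% to 3.68%.

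Oxct1 had the highest level of the 4 genes in m/m kidney. Its m/m values were 636, 624, 586, 642 and 633 FPKM, and its db/db values were 309, 240 and 274 FPKM. Every db/db library thus lay far under the lowest m/m library, and the spread within m/m was small. The mean went from 624 ± 22.5 FPKM (SD, n = 5) to 274 ± 34.9 FPKM (SD, n = 3), a log2 change of -1.19 (95% interval -1.41 to -0.97, limma adjusted p = 2.59e-06). Its rank from the lowest log2 fold change was 131, and that of Acat1 was 146.

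Acat1, the thiolase next to Oxct1, followed a similar course. It was at 288, 294, 306, 266 and 305 FPKM in m/m kidney and at 112, 149 and 142 FPKM in db/db kidney. The groups were separate, and db/db vehicle 1 was the lowest library. The mean went from 292 ± 16.4 FPKM (SD, n = 5) to 135 ± 19.6 FPKM (SD, n = 3), a log2 change of -1.12 (95% interval -1.29 to -0.94, limma adjusted p = 4.92e-07).

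Bdh2, the cytosolic enzyme, which is also described as taking part in making an iron-binding siderophore, changed least. It was at 189, 216, 190, 211 and 211 FPKM in m/m kidney and at 136, 187 and 173 FPKM in db/db kidney. The groups came close, since the highest db/db library lay just under the lowest m/m library. The mean went from 203 ± 12.9 FPKM (SD, n = 5) to 165 ± 26.5 FPKM (SD, n = 3), a log2 change of -0.31 (95% interval -0.51 to -0.10, limma adjusted p = 0.0229). This call rested on db/db vehicle 1: without that library the change was -0.17 and the limma adjusted p 0.138. It was also lost with a replicate block, at -0.27 and an adjusted p of 0.0791, and the limma adjusted p over all 28 alternatives ran from 0.00198 to 0.138. Bdh1, Oxct1 and Acat1 were called lower in all 28.

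Over all tested genes the median log2 change was 0.16, that is, the typical gene was slightly higher in db/db kidney. Relative to it, the changes were -1.82 for Bdh1, -1.35 for Oxct1, -1.28 for Acat1 and -0.46 for Bdh2. Called genes in the whole table were 3793 higher and 1067 lower as deposited, 1485 and 2344 after median-of-ratios scaling, and 1582 and 1747 after quantile normalization. The 4 genes were lower and called under each scaling.

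Of the dehydrogenases, Bdh1 had the larger change, and this was also looked at as a ratio within each library. The ratio of Bdh1 to Bdh2 within a library, on the FPKM + 1 scale, was 0.273 in m/m kidney (range 0.237 to 0.316) and 0.107 in db/db kidney (range 0.0839 to 0.169). The groups were separate, with an exact two-sided permutation p of 0.0357, the smallest the design allows, and 0.0714 after Benjamini-Hochberg adjustment over 2 ratios, which misses 0.05. The ratio of Oxct1 to Acat1 was 2.14 in m/m kidney (range 1.91 to 2.41) and 2.03 in db/db kidney (range 1.60 to 2.74), with an exact permutation p of 0.679. Those ranges overlapped, and the db/db range was the wider. In every m/m library the order of levels was Oxct1, Acat1, Bdh2 and Bdh1, whereas in each of the 3 high-read db/db libraries Bdh2 exceeded Acat1.

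**Figure D2:**
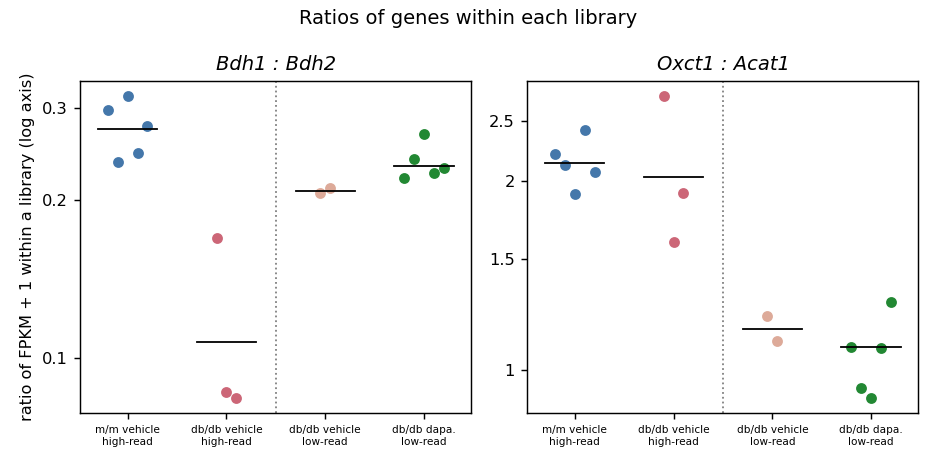
Ratio of 2 genes within each library on the FPKM + 1 scale (points, log axes), by group and library set, with the geometric mean as a bar. Bdh1 to Bdh2 separates m/m from high-read db/db libraries, and Oxct1 to Acat1 does not.

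Among the 3 high-read db/db libraries, vehicle 1 stood apart from 2 and 3, with the highest Bdh1 and Oxct1 and the lowest Bdh2 and Acat1. Its 7 leukocyte markers summed to 83.5 FPKM, against 26.8 and 44.8 in libraries 2 and 3 and 30.4 to 45.3 in m/m kidney, and 0 of the 6 that were tested were called. Without it, the log2 changes were -1.85 for Bdh1, -1.28 for Oxct1 and -0.99 for Acat1, all called by limma, and the log2 difference of the ratio of Bdh1 to Bdh2 was -1.68. Of 12 proximal tubule markers, 6 were called lower and 2 higher in db/db kidney, with a median log2 change of -0.29. Their sum was 8743 to 9639 FPKM in m/m and 6801 to 8331 in the high-read db/db libraries. In the low-read db/db libraries it was 8967 to 9198 FPKM with vehicle and 9079 to 10312 with dapagliflozin. All 4 markers each of the distal convoluted tubule and of podocytes were called higher, as were 6 of 7 collecting duct markers. The part of cell composition in the changes of Bdh1, Oxct1, Acat1 and Bdh2 was not tested.

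Of 27 other genes of ketone body metabolism, 24 passed the filter, and 7 were called higher and 1 lower in db/db kidney. That is 29.2% and 4.17% of them, against 29.5% and 8.29% of all tested genes, so the share called higher was near the background. The median log2 change of the 24 was 0.12, against 0.16 for all genes and -1.15 for the 4. After median-of-ratios scaling the split was 3 higher (Acat3, Acaa2 and Hadhb) and 3 lower (Aacs, Bsg and Sucla2), 12.5% each, against 11.5% and 18.2% of all tested genes. Hmgcll1, Hcar2 and Fgf21 were too low to be tested, with no library above 0.808 FPKM. The testis forms of the transferase, Oxct2a and Oxct2b, were at most 0.149 FPKM in the high-read libraries and passed the filter through the low-read ones, where Oxct2a reached 6.14 to 14.6 FPKM.

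Acat3, a cytosolic thiolase, was called higher (log2 change 0.98, limma adjusted p = 1.14e-04), but its gene overlaps Tcp1 on the other strand, so its reads are uncertain. Acat2 and Hmgcs1, which serve cholesterol synthesis in the cytosol, were not called, at log2 changes of -0.04 and 0.04. Aacs, which activates acetoacetate for lipid synthesis in the cytosol, was the gene that fell. It averaged 88.0 ± 21.3 FPKM (SD, n = 5) in m/m and 31.4 ± 2.51 FPKM (SD, n = 3) in db/db kidney, a log2 change of -1.42 (limma adjusted p = 5.59e-05), and was called in all 28 alternatives.

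Of 6 transport genes, the monocarboxylate carriers Slc16a7 (log2 change 0.42) and Slc16a6 (0.48) were called higher in db/db kidney. Both overlap genes on the other strand, and Slc16a6 also overlaps Gm25540 on the same strand. Slc16a1, the main carrier of ketone bodies across cell membranes, averaged 18.8 FPKM in m/m and 29.3 FPKM in db/db kidney and the groups did not overlap, but it was not called (limma adjusted p = 0.0995, 0.0106 to 0.938 over 28 alternatives, called in 4). The apical carriers Slc5a8 and Slc5a12 and the chaperone Bsg were not called. Among the steps that feed or follow Oxct1, citrate synthase (Cs) was called higher at a log2 change of 0.26, and the succinyl-CoA synthetase subunits Suclg1, Suclg2 and Sucla2 were not called. Of 4 thiolase genes of fatty acid oxidation, Acaa2 rose from 101 ± 9.25 to 312 ± 27.8 FPKM (SD, n = 5 and 3, log2 change 1.62, limma adjusted p = 9.29e-08) and Hadhb by 0.57 on the log2 scale, while the peroxisomal Acaa1a and Acaa1b were not called. Of the regulators tested, Ppargc1a, a coactivator of mitochondrial genes, was called higher (0.38), and Ppara, Sirt3 and Esrra were not called. The calls of Slc16a7, Slc16a6, Cs and Ppargc1a were lost after median-of-ratios scaling.

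**Figure D3:**
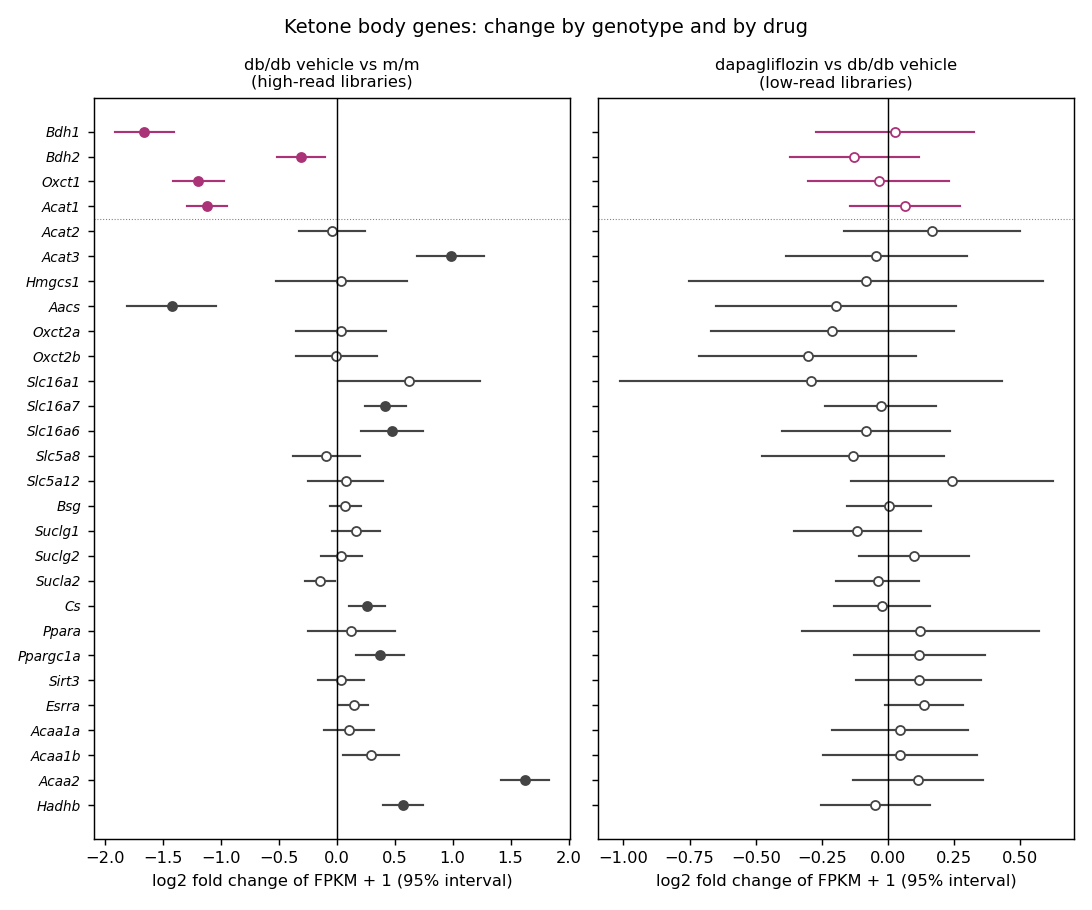
Log2 fold change of FPKM + 1 with its 95% interval (horizontal axes) for the 4 genes (above the dotted line) and 24 other ketone body genes, by genotype on the left and by drug on the right; filled points were called at a limma adjusted p under 0.05. The 4 genes lie left of 0 in the genotype panel, and no point is filled in the drug panel.

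With dapagliflozin, none of the 4 genes differed from vehicle by a called amount. Before these values, one property of the low-read libraries has to be given. The variance between libraries in reads per gene, divided by what sampling alone gives, was 0.723 for dapagliflozin 2 and 3, so they differed by less than the sampling noise and were counted as 1 sample. It was also under 1 for dapagliflozin 1 and 2 (0.886) and, across the groups, for db/db vehicle 4 with dapagliflozin 5 (0.756) and db/db vehicle 5 with dapagliflozin 1 (0.726). The vehicle pair itself gave 1.58, m/m pairs 1.84 to 3.05 and high-read db/db pairs 4.44 to 7.28. The other 8 pairs of a vehicle and a drug library gave 1.38 to 2.24. Each ratio used only genes within a fixed range of reads summed over the pair. These were 2217 to 2365 genes in high-read and 5391 to 5590 in low-read pairs, so the sets are not compared on the same genes. The main fit kept db/db vehicle 4 and 5 and dapagliflozin 1 and 5 as separate samples and takes them as independent. Where they are not independent, drug differences can come out too small, and drug p-values and intervals do not hold. The cause of the close agreement was not tested. The drug differences are given with and without dapagliflozin 1 and 5.

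**Figure D4:**
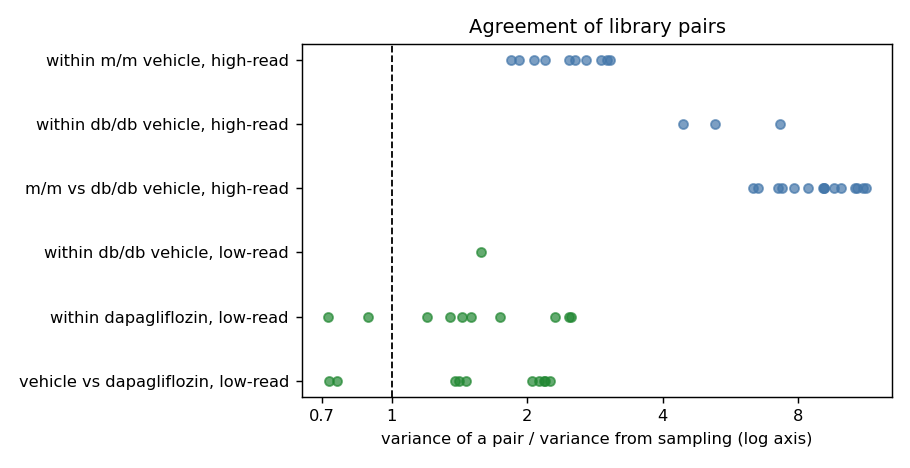
Variance between 2 libraries in reads per gene over the variance that sampling gives (log axis), 1 point per pair, by group and library set, with a dashed line at 1. The points left of the line are all pairs of low-read libraries, and 2 of them join a vehicle with a dapagliflozin library. High-read and low-read pairs do not rest on the same genes.

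Bdh1 was at 20.9 and 23.5 FPKM in db/db vehicle 4 and 5 and at 23.0, 21.9, 22.2, 22.8 and 22.6 FPKM in dapagliflozin 1 to 5. All drug values lay between the vehicle values. The log2 change was 0.03 (95% interval -0.27 to 0.32, limma adjusted p = 0.968), on 130 to 189 reads per library. Oxct1 was at 178 and 160 FPKM with vehicle and at 161, 136, 135, 172 and 195 FPKM with the drug. The drug libraries spread to both sides of the vehicle libraries, and the log2 change was -0.04 (95% interval -0.30 to 0.23, limma adjusted p = 0.946).

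Acat1 was at 146 and 144 FPKM with vehicle and at 148, 146, 150, 159 and 152 FPKM with the drug. Drug values reached slightly higher and overlapped the vehicle values, with a log2 change of 0.06 (95% interval -0.14 to 0.27, limma adjusted p = 0.851). Bdh2 was at 105 and 115 FPKM with vehicle and at 108, 94.8, 85.7, 104 and 102 FPKM with the drug. Of the drug libraries, 4 lay under both vehicle libraries and 1 between them, and the log2 change was -0.13 (95% interval -0.37 to 0.12, limma adjusted p = 0.704). Without dapagliflozin 1 and 5 the log2 changes were 0.01 for Bdh1, -0.14 for Oxct1, 0.08 for Acat1 and -0.18 for Bdh2, with limma adjusted p-values from 0.487 to 0.974. The 95% intervals leave room for changes of this size, so likeness of the groups is not shown.

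In the same comparison 0.124% of tested genes were called higher and 0.148% lower, that is 16 and 19 genes, with 1631 at an unadjusted p under 0.05 and 0 called by limma voom on recovered reads. These counts depended on the libraries used: without dapagliflozin 1 and 5, limma called 180 genes higher and 299 lower. None of the 24 other ketone body genes was called. For the 2 ratios the exact permutation p by drug was 0.133, the smallest this design allows, and 0.667.

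The distance of treated db/db kidney from m/m kidney was taken as the sum of the genotype and the drug difference, whose terms share no library. It was -1.63 for Bdh1, -1.23 for Oxct1 and -1.05 for Acat1 on the log2 scale, each called by limma (adjusted p = 9.04e-05, 2.97e-04 and 1.49e-04). For Bdh2 it was -0.43 and not called (limma adjusted p = 0.0596). Of all tested genes, 4.93% were called lower in this sum. The drug terms were 0.03 for Bdh1, -0.04 for Oxct1 and 0.06 for Acat1, so these sums largely repeat the genotype differences. The close agreement of vehicle and drug libraries limits the sums as well.

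Levels also differed between the library sets within 1 group of the labels, and the cause was not tested. In low-read db/db vehicle libraries, Oxct1 was lower than in high-read ones by a log2 difference of -0.69 (169 against 274 FPKM, limma adjusted p = 4.14e-04) and Bdh2 by -0.57 (110 against 165 FPKM, adjusted p = 0.00101). Bdh1 was higher by 0.40 (22.2 against 17.0 FPKM, limma adjusted p = 0.0298), and Acat1 differed by 0.12 (145 against 135 FPKM, adjusted p = 0.342). Of all tested genes, 42.3% were called lower and 18.8% higher between the sets. With the sets pooled, the drug differences of Oxct1 and Bdh2 came out at -0.45 and -0.47, a fit in which the difference between the sets and the drug cannot be told apart. In each low-read library Acat1 exceeded Bdh2, the order seen in m/m and not in high-read db/db libraries. Acat3 was at 20.2 to 31.7 FPKM in high-read and at 264 and 278 FPKM in low-read db/db vehicle libraries, and its overlapping gene Tcp1 averaged 64.4 and 212 FPKM in them. Acat3 was also 1 of the 342 genes that were much higher in the low-read libraries. It held 1063 to 1144 reads in each of these, whatever the total. The part of Tcp1 in the Acat3 difference was not tested.

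Profiles were compared over 14 samples, after each gene was centred on its mean in each library set, by the root mean square difference of log2(FPKM + 1) over 12489 genes. The closest to Bdh1 were B4galt5 (0.137), Rnf24 (0.148) and Car4 (0.152), and the closest to Oxct1 were Evc (0.0945), Glb1 (0.111) and Fgf1 (0.122). Acat1 was most like Znrf2 (0.0982), Cyb5a (0.109) and Hykk (0.122), and Bdh2 most like Akr1e1 (0.0673), Camk2n1 (0.0774) and Csrp2 (0.0845). Each of the 9 genes near Bdh1, Oxct1 or Acat1 was called lower in db/db kidney, with log2 changes of -1.83 to -0.91. That follows largely from how they were chosen, as the profiles hold the genotype difference. Near Bdh2, Camk2n1 and Csrp2 were called lower and Akr1e1 was not (limma adjusted p = 0.0502). Among the 4 genes themselves Oxct1 and Acat1 were the most alike (0.192) and Bdh1 and Bdh2 the least (0.552). These distances are descriptions, and the genes called by genotype share that difference.

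The annotation gave Bdh1 and Oxct1 each 1 overlapping gene on the opposite strand, Gm15743 and BC037032, for which no values are used here. Whether the counting used strand is not given in the sources used here, so a share of their reads could belong to those genes. Bdh2 and Acat1 overlapped no other gene.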

How the data were processed

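Per the labels' protocols, mirVana kits served to extract the kidney RNA and TruSeq Stranded mRNA kits to make the libraries. The authors deposited 1 table of FPKM per gene for 15 libraries. The tools were Cufflinks, HTSeq, HISAT2 and Trimmomatic and the build GRCm39, per the submitters' processing notes. Versions and settings, including strand, were not given in the sources used here. Within a gene, values stepped by the worth of 1 read, in 100% of genes at a relative tolerance of 1e-08, which gave reads per gene and library. Counting errors from them cover sampling only, as the reads carry no molecular identifiers. Sets were split at 5 M reads.

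Tests used limma 3.58.1 (R 4.3.3) with an intensity trend on log2(FPKM + 1), on 12869 genes (mean of 0.5 FPKM or more), in 1 fit of 4 groups (m/m, high-read and low-read db/db vehicle, dapagliflozin; n = 5, 3, 2 and 4, dapagliflozin 2 and 3 averaged), with two-sided tests and Benjamini-Hochberg adjustment over all tested genes. A fold on this scale understates the change of low genes. The fit assumes the same spread in both library sets. With only the libraries compared, limma adjusted p by genotype was 8.62e-05 for Bdh1, 3.69e-05 for Oxct1, 8.84e-05 for Acat1 and 0.0342 for Bdh2. Each was larger than in the joint fit. Ratios were tested by exact permutation (SciPy 1.17.1). The steps were tested on simulated data.

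The 4 genes, the other lists and the ratios were chosen with earlier results of these data known. Named genes are the 4, the other ketone body genes, and for each of the 4 the 3 genes with the most similar profile, predicted genes left out. Some genes and ratios of the pathway are not reported here. Overlaps were looked up by symbol in a GRCm38 annotation. Alternatives were another pseudocount, no filter, 2 scalings, separate fits, pooled sets, weights, a replicate block and each library left out; voom on recovered reads, other treatment of dapagliflozin 1, 2, 3 and 5, and a list without Acat3, Oxct2a and Oxct2b were chosen after seeing the data.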

Additional observations from a re-analysis of the deposited data

Results flagged for a closer look

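Among 60 pairs of a gene and a group (the 4 genes and 27 other ketone body genes, in m/m and in dapagliflozin with 2 and 3 as 1 sample, without Fgf21, listed at 0 in all of these libraries), 2 had a library far from the others of its group, and chance gives about 1 in 20. None of the 4 genes had one. Suclg1, a subunit of succinyl-CoA synthetase, was at 241 FPKM in m/m 3 and at 249.8 to 253 FPKM in the other m/m libraries. Acaa1a, a peroxisomal thiolase, was at 44.3 FPKM in dapagliflozin 4 and at 36.5 to 37.6 FPKM in the others.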

How the results depend on the processing

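Direction and call held in all alternatives for Bdh1, Oxct1 and Acat1 by genotype; each library left out in turn gave Bdh2 -0.40 to -0.17. With a replicate block Bdh2 was at -0.27 (not called), Oxct1 by drug at 0.0303, and the drug calls were 0 higher and 1 lower. The numbers share no origin in the labels. As deviations from group means, same-numbered libraries correlated at 0.381, 0.0538 and -0.00823 in the high-read and -0.0535 and -0.724 in the low-read set. The 2 low-read vehicle libraries deviate in mirror image, so db/db vehicle 4 with dapagliflozin 5 gave the opposite sign, 0.724. Because of the mirroring, the low-read values cannot show whether the numbers pair libraries. Mirroring does not set the size of 0.724, and that pair also differed by less than the sampling noise (variance ratio 0.756). The block changed no other call of the 4 genes. Uncalled drug differences changed sign: Oxct1 was at 0.0570 with dapagliflozin 2 and 3 left out and at 0.00282 with 1, 2 and 3 as their mean, and ran from -0.12 to 0.0446 with each library left out, as did Bdh1 from -0.0533 to 0.11. With the sets pooled, Ppargc1a was at -6.09e-04 and Slc16a1 at -0.0481. Genes called higher by genotype were 1485, 1582 and 2095 with median-of-ratios, quantile and pooled sets, and genes called lower 2344 and 1747 with the first pair. Of the 24 other ketone body genes tested, 3 were called higher and 3 lower by genotype after median-of-ratios. With only the libraries compared, array weights or voom, 10 were called higher and 2 lower. Calls among all 12869 tested genes were also more in these 3 settings, at 5243, 4938 and 5630 higher and 1362, 1350 and 1438 lower. By drug, genes called higher and lower were 63 and 160 with no filter, 26 higher with quantile normalization, 0 and 1 with only the libraries compared and with array weights, 190 and 723 with sets pooled (and 1 other ketone body gene), 0 and 0 with voom, 34 lower without dapagliflozin 2 and 3, 27 and 41 with 1 to 3 as their mean, and 180 and 299 without dapagliflozin 1 and 5; each library left out gave 1 to 58 higher (58 without dapagliflozin 1, 1 without db/db vehicle 4) and 0 to 69 lower (69 without dapagliflozin 5, 0 without vehicle 4 or 5). Log2 ratios by genotype with each library left out ran from -1.68 to -1.18 (Bdh1 to Bdh2) and -0.29 to 0.10 (Oxct1 to Acat1), where 2 db/db libraries allow no exact p under 0.0952. For these the cause was not tested. The low-read depth limits the drug comparison most for Bdh1 among the 4 genes, with a counting error of 7.27% to 8.77% per library.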
